A study of Mus musculus with 18 samples.

Results

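Transcripts of 10 junction genes of the blood-testis barrier were measured by RNA-seq in cultured mouse testes: Cldn11, Cldn3, Cldn5, Ocln, Tjp1, Jam2, Jam3, F11r, Cdh2 and Gja1. They were picked by name for their known place in the barrier, with earlier results of these data known. They were 10 of the 22657 genes in the table. All 10 passed the filter on low values (at least 1 FPKM in 3 or more samples; FPKM is the number of fragments scaled to gene length and to the fragments mapped in the library), which left 15790 genes for testing. The study asked whether alginate oligosaccharides (AOS, short sugar chains cut from the seaweed polymer alginate) act on testes damaged by busulfan, an alkylating anti-cancer drug that kills dividing germ cells. ICR males of 3 weeks of age received busulfan once at 40 μg/g body weight or were left without it, and 2 weeks later whole testes were placed in DMEM/F12 medium with fetal bovine serum for 48 h. Testes without busulfan were cultured with AOS at 0, 10 or 50 μg/mL (A0, A10 and A50, labelled CTA0, CTA10 and CTA50), and testes after busulfan at the same concentrations (B0, BA10 and BA50, labelled CTBA0, CTBA10 and CTBA50). Each group held 3 samples, 18 in all. The methods give 6 testes per treatment and 3 repeats, but not how testes were divided among the sequenced samples, so the p-values below measure the spread between samples and no more is known of what it contains.

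The blood-testis barrier is a belt of junctions between neighbouring Sertoli cells, the somatic nurse cells of the seminiferous tubule. It shuts the developing meiotic and postmeiotic germ cells off from blood and lymph, and it opens and closes again as germ cells move through it. Claudins, occludin and junctional adhesion molecules form its tight junctions, the scaffold ZO-1 ties them to actin, N-cadherin holds the adherens junctions beside them, and connexin 43 forms gap junction channels in the same belt. The genes are also used elsewhere: Cldn5 is best known from endothelial cells, which line blood vessels, and Gja1 is made by several testicular cell types. In a whole testis, fewer cells of a type and less RNA per cell cannot be told apart.

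One library stood apart. Replicate 3 of A10 had the lowest mean correlation with its own group (0.965, against 0.974 to 0.993 for the other 17 libraries) and was the lowest of all 18 samples for 7 of the 10 junction genes, and also for 13 of 19 Sertoli cell markers and for 28.1% of all genes tested. Its Sertoli markers summed to 1469 FPKM, against 2885 to 5880 FPKM in every other library, with Sox9 at 4.71 FPKM against 12.28 to 23.46 FPKM elsewhere. For A10 and the pooled comparisons of the junction genes, values without it are given beside several of those it moved. Pooled values of the other gene lists below include it. That library was the lowest sample for 9 of 21 other tight junction genes and 16 of 29 adherens junction and ectoplasmic specialization genes. The same held for 9 of 20 barrier regulators and 3 of 8 other gap junction and desmosome genes. The 3 B0 libraries also carried transcripts that testis tissue of the other groups held at low level: the 8 fat cell genes summed to 207 to 888 FPKM, against 42.5 to 138 FPKM in the other 15 libraries, and the keratin gene Krt7 reached 6.88 to 25.28 FPKM against at most 1.18 FPKM. The tissue was testis by its markers: the Sertoli cell gene Clu averaged 2836 FPKM and Sox9 and Wt1 were present in every library, whereas Amh, the Sertoli hormone of the immature testis, stayed under 1 FPKM in every library. As a check of the busulfan label, 13 of 16 spermatocyte markers passed the test for busulfan described below as lower, and none as higher. Of all genes tested, 24.8% were called lower. Of 12 spermatogonium markers, 8 were called lower and 1 higher. Of 16 spermatid markers 0 were called, and 15 had a change above 0 (median 0.41).

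Levels differed widely between the junction genes. FPKM is scaled to gene length, so the following levels can be set beside each other. Cldn11, the main claudin of the Sertoli cell tight junction, was the highest in every sample, with a mean of 309.6 FPKM ± 79.8 (SD, n = 18), and made up 34.2% to 53.8% of the summed level of the 10 genes. Jam2 at 85.9 ± 28.7 FPKM, Gja1 at 81.0 ± 22.1 FPKM and F11r at 81.0 ± 19.5 FPKM followed. These 3 did not differ beyond their spread: Jam2 was above Gja1 in 10 of 18 samples and Gja1 was above F11r in 8. Cdh2 averaged 41.7 ± 11.3 FPKM, Tjp1 27.3 ± 2.89 FPKM, Jam3 26.2 ± 4.77 FPKM, Cldn5 10.5 ± 3.73 FPKM, Cldn3 8.67 ± 3.53 FPKM and Ocln 1.79 ± 0.596 FPKM. Tjp1 was above Jam3 in 11 of 18 samples and Cldn5 above Cldn3 in 13, whereas every other step in the order held in all 18. Ocln, which encodes occludin, was thus near the filter limit in every sample. Relative to its own mean Tjp1 varied least, with a coefficient of variation of 10.6%, and Cldn3 most, with 40.7%.

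**Figure D1:**
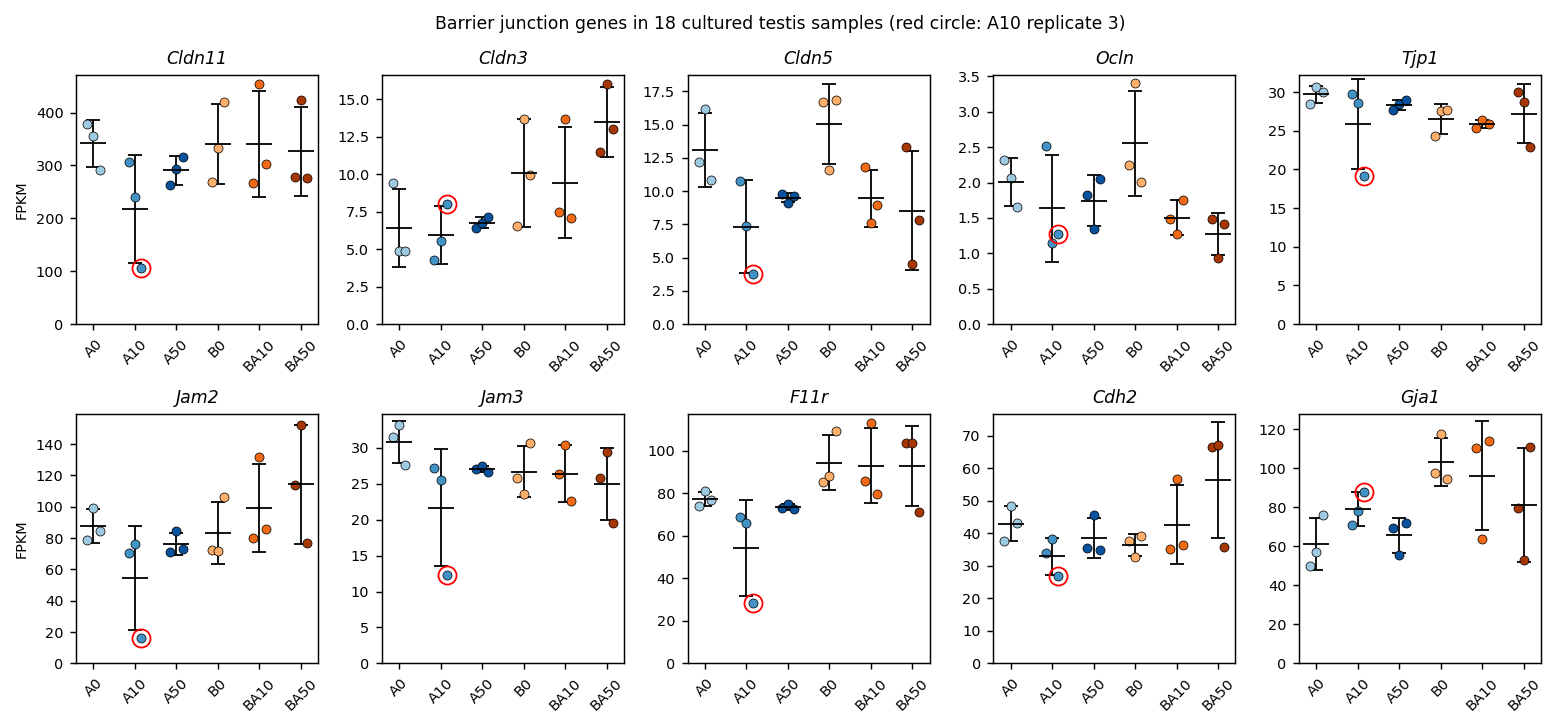
FPKM of each junction gene (vertical axes from 0, a separate scale for each gene) in the 3 samples of each group (points), with the group mean and SD (bars). The red circle marks A10 replicate 3, which was the lowest of the 18 samples for Cldn11, Cldn5, Tjp1, Jam2, Jam3, F11r and Cdh2 but not for Cldn3, Ocln or Gja1.

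Busulfan was compared with no busulfan at each AOS concentration and pooled over the 3 concentrations, with 9 samples on each side. In the pooled comparison 3 of the 10 genes passed the test and all 3 were higher after busulfan: Cldn3, F11r and Gja1. A gene is called here where its Benjamini-Hochberg adjusted p in the limma fit of all 15790 genes is under 0.05, and log2 changes are differences of mean log2(FPKM + 1), a scale that understates the change of genes near 1 FPKM. The pooled comparison called 38.1% of all genes tested, 13.3% as higher and 24.8% as lower. Counting both directions, 3 of 10 is no larger a share than that of genes at large. Counting higher calls alone, the 3 of 10 stand beside 13.3%, a difference that was not tested. Of the 10 genes, 8 had a change above 0, with a median of 0.24 against 0.01 for all genes tested. Without A10 replicate 3 these were 6 of 10 and a median of 0.15, and the same 3 genes were called. All 15 endothelial cell genes used as markers below were higher in the pooled comparison as well, 4 of them called by limma, with a median of 0.29. Their part in the changes of the junction genes was not tested.

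Cldn3, a claudin of newly forming Sertoli cell tight junctions, had the largest pooled change of the 10. It was at 9.39, 4.88 and 4.88 FPKM in A0, 4.26, 5.51 and 8.02 FPKM in A10 and 6.40, 6.77 and 7.12 FPKM in A50. After busulfan it was at 6.51, 13.70 and 9.95 FPKM in B0, 7.48, 13.68 and 7.10 FPKM in BA10 and 11.46, 16.02 and 12.99 FPKM in BA50. Samples with busulfan lay above every sample without it in 6 of 9 cases, and the remaining 3 overlapped. The mean was 1.73 times as high with busulfan, a log2 change of 0.68 ± 0.17 (SE; limma adjusted p = 0.0053; exact two-sided permutation p = 0.003 within AOS concentrations). The change was 0.75 without A10 replicate 3 and 0.73 without both groups cultured without AOS, and was called in both cases. At single concentrations it was called for BA50 against A50 alone (0.89 ± 0.29, limma adjusted p = 0.0447), where the groups did not overlap, and this call was lost on leaving out any 1 of the 6 samples (adjusted p from 0.0581 to 0.125).

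F11r encodes JAM-A, an adhesion molecule of tight junctions. Its levels were 74.14, 81.00 and 77.09 FPKM in A0, 69.06, 65.98 and 28.44 FPKM in A10, and 72.97, 75.22 and 72.63 FPKM in A50. With busulfan they were 85.63, 88.32 and 109.35 FPKM in B0, 86.10, 113.25 and 79.90 FPKM in BA10, and 103.73, 103.76 and 71.25 FPKM in BA50. Without busulfan 8 samples lay within a narrow band and A10 replicate 3 far below it, while 7 of the 9 busulfan samples lay above the whole band. The mean was 1.36 times as high with busulfan, a log2 change of 0.48 ± 0.15 (SE; limma adjusted p = 0.0207; exact permutation p = 0.001). Without A10 replicate 3 the change was 0.34 ± 0.09 with a smaller adjusted p of 0.00857 by limma. With BA10 replicate 2 and BA50 replicate 2 left out together it was 0.40 and no longer called (limma adjusted p = 0.0662). BA10 against A10 was called by limma as well (0.85 ± 0.26, adjusted p = 0.0332), but fell to 0.44 and an adjusted p of 0.11 without A10 replicate 3.

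Gja1 encodes connexin 43, whose channels join Sertoli cells to each other and to germ cells. It was at 50.06, 57.31 and 76.03 FPKM in A0, 71.06, 78.06 and 88.03 FPKM in A10 and 69.35, 55.33 and 72.16 FPKM in A50. After busulfan it was at 97.70, 117.40 and 94.32 FPKM in B0, 110.31, 63.91 and 114.08 FPKM in BA10 and 79.37, 52.96 and 110.97 FPKM in BA50. All of B0 lay above all samples without busulfan, whereas BA10 and BA50 each held both high and low samples. The pooled mean was 1.36 times as high with busulfan, a log2 change of 0.42 ± 0.15 (SE; limma adjusted p = 0.0377; exact permutation p = 0.0245). This call was the least firm of the 3: leaving out single libraries gave limma adjusted p from 0.00767 to 0.077, with the call lost in 12 of 18 cases, and pooling over 10 and 50 μg/mL alone gave 0.24 (adjusted p = 0.314). In B0 against A0 the log2 change was 0.76 ± 0.26 (limma adjusted p = 0.0639), and the fat cell and keratin genes named above were high in the same 3 libraries. All 15 endothelial cell genes were higher in B0 against A0 too, with none called and a median of 0.53. The part of these genes in the result was not tested.

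**Figure D2:**
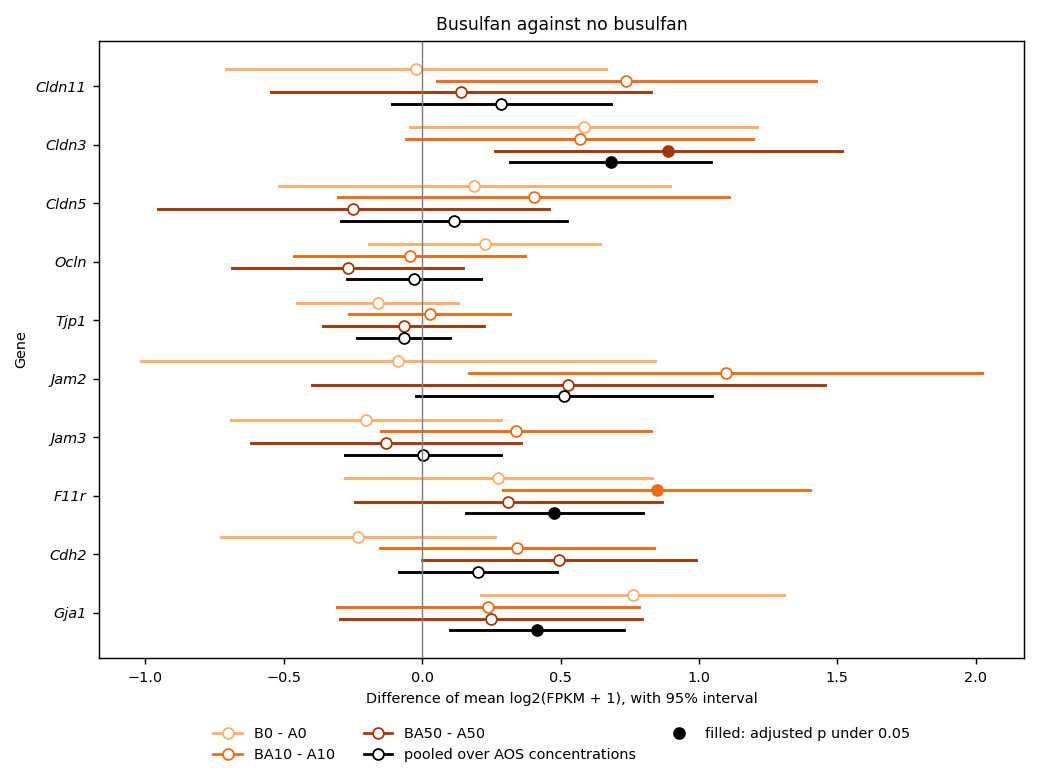
Difference of mean log2(FPKM + 1) between testes with and without busulfan for each junction gene (horizontal axis), with the 95% interval of the limma fit, at each AOS concentration (n = 3 against 3) and pooled (black, n = 9 against 9). Filled points passed an adjusted p of 0.05: pooled Cldn3, F11r and Gja1, BA10 against A10 for F11r, and BA50 against A50 for Cldn3.

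The promoters of these 3 genes are shown because the genes were called together in the pooled comparison. Each run is the 250 bases before the annotated transcription start in RefSeq (GRCm38.p6), 5′ to 3′ on the gene's strand, and capitals mark any match to the motifs searched on both strands. RefSeq promoter entries matched 7 of the 10 genes, and those of Cdh2, Jam2 and Jam3 were not used here. The windows are chr5:134985964-134986213 (plus strand) for Cldn3, chr1:171437311-171437560 (plus strand) for F11r and chr10:56377050-56377299 (plus strand) for Gja1.
Cldn3: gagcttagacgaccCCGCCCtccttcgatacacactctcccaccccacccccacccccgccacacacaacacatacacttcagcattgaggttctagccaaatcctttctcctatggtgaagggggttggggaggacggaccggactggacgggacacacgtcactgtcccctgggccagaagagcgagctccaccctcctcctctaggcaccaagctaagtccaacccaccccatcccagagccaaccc
F11r: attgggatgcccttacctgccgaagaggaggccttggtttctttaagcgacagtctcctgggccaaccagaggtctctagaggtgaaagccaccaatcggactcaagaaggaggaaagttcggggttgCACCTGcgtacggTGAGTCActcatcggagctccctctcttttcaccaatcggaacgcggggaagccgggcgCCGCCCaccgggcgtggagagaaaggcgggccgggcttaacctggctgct
Gja1: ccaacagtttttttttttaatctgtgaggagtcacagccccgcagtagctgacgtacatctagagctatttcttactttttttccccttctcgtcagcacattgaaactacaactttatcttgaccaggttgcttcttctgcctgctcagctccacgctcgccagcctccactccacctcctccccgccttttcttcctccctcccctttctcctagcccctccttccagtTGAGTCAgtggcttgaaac
The letters searched were GGGCGG (the GC box bound by Sp1), CACCTG (an E-box bound by Snail factors), TATAAA (the TATA box), AGAACA (an androgen receptor hexamer) and TGACTCA (the AP-1 site). Cldn3 held 1 GC box, F11r held 1 GC box, 1 E-box and 1 AP-1 site, Gja1 held 1 AP-1 site, and no match overlapped another. Of 32851 promoter windows of this length, 32.7% held the GC box, 17.2% the E-box, 12.4% the TATA box, 16.1% the androgen receptor hexamer and 4.46% the AP-1 site. The Cldn11 window held none of the 5, and AP-1 matches were found in no other junction gene window. A match describes the letters in the window and was not tested as a binding site.

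The other tight junction genes gave no call for busulfan in the pooled limma fit. Cldn11 ranged from 106.19 to 377.91 FPKM without and from 265.86 to 454.37 FPKM with busulfan, and its pooled log2 change of 0.29 (95% interval from -0.11 to 0.68, adjusted p = 0.237) was 0.14 without A10 replicate 3. Jam2, which encodes JAM-B, had a pooled change of 0.51 (interval from -0.02 to 1.05, adjusted p = 0.12), which came to 0.28 without A10 replicate 3 (limma adjusted p = 0.135). Its 2 highest samples were BA50 replicate 2 at 152.46 FPKM and BA10 replicate 2 at 131.75 FPKM, both of which were also the highest in summed spermatid and Sertoli markers. Jam3, which encodes JAM-C, had a pooled change of 0.00 (interval from -0.28 to 0.28), or -0.11 without that library. Cldn5 changed by 0.11 (interval from -0.29 to 0.52) and Ocln by -0.03 (interval from -0.27 to 0.21), and without the same library they came to -0.0027 and -0.06. The sign for Ocln turned under both other scalings of the libraries. Tjp1, the scaffold ZO-1, was at 24.35, 27.62 and 27.64 FPKM in B0 and 28.53, 30.66 and 30.00 FPKM in A0. These groups did not overlap, but the difference was small (-0.16, limma adjusted p = 0.545). Its pooled change was -0.07, and -0.13 without A10 replicate 3 (limma adjusted p = 0.0654; exact permutation p = 0.011). Among the genes of this paragraph, the intervals of Tjp1 (from -0.23 to 0.10), Jam3, Ocln and Cldn5 exclude a pooled change at the Cldn3 estimate of 0.68. The interval of that estimate was itself from 0.32 to 1.04.

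Cdh2, the N-cadherin of the Sertoli cell adherens junction, had a pooled change of 0.20 (interval from -0.08 to 0.49, limma adjusted p = 0.246), or 0.16 without A10 replicate 3. Leaving out single libraries gave changes from 0.13 without BA10 replicate 2 to 0.30 without BA50 replicate 3. The limma adjusted p then ranged from 0.0447 to 0.435. In B0 against A0, 1.47% of all genes tested were called higher and 12.3% lower. At single concentrations 0 of the 10 genes were called in B0 against A0, 1 in BA10 against A10 and 1 in BA50 against A50, where 13.8%, 18.9% and 19.9% of all genes tested were called. Groups did not overlap for 3, 2 and 1 of the 10 genes, and for 33.2%, 31.2% and 41.7% of all genes tested.

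AOS was compared with no AOS at each concentration, without and after busulfan. None of the 10 genes was called by limma in A10 or A50 against A0, or in BA10 or BA50 against B0. At an unadjusted p under 0.05 there were 5, 0, 1 and 3 of the 10, against 15.2%, 15.6%, 5.05% and 24.3% of all genes tested. With adjustment these comparisons called 0%, 0%, 0.0253% and 0.095% of all genes tested, so few calls were made at any gene. The comparisons within a busulfan status share their control samples. Groups did not overlap for 4, 2, 1 and 1 of the 10 genes, against 20.1%, 40.8%, 11.4% and 24.6% of all genes tested.

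In A10 against A0 the 5 genes at an unadjusted p under 0.05 were Cldn11 (-0.77), Cldn5 (-0.83), Jam2 (-0.95), Jam3 (-0.56) and F11r (-0.60), with limma adjusted p from 0.322 to 0.324. Each of these rested in part on A10 replicate 3: its Jam2 was 16.28 FPKM beside 70.69 and 76.01 FPKM in replicates 1 and 2, and its Cldn11 was 106.19 FPKM beside 307.14 and 239.91 FPKM. Without it the changes were -0.32 for Cldn11, -0.48 for Cldn5, -0.25 for Jam2, -0.21 for Jam3 and -0.19 for F11r, none with an unadjusted p under 0.05. Cldn3 and Gja1 were higher in this library than in the other A10 samples, at 1.64 and 1.18 times their mean, so it was not low for every junction gene.

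**Figure D3:**
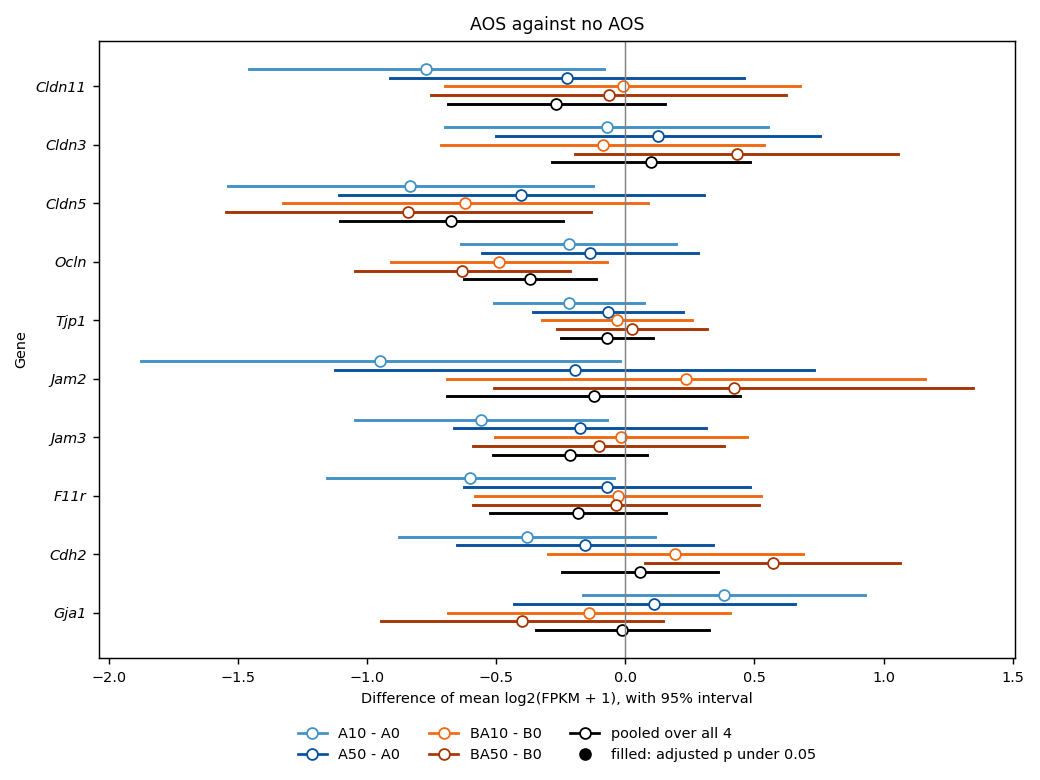
Difference of mean log2(FPKM + 1) between cultures with and without AOS for each junction gene (horizontal axis), with the 95% interval of the limma fit, for the 4 single comparisons (n = 3 against 3) and pooled over them (black, n = 12 against 6). No point is filled, since none passed an adjusted p of 0.05; Cldn11, Cldn5, Ocln, Jam3 and F11r lie below 0 in all 4 comparisons.

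Cldn5 and Ocln were the genes with the lowest pooled AOS changes. Cldn5 was at 12.17, 16.19 and 10.84 FPKM in A0 and at 9.77, 9.13 and 9.63 FPKM in A50, which did not overlap. After busulfan it was at 16.71, 11.56 and 16.86 FPKM in B0, 11.82, 7.58 and 8.96 FPKM in BA10 and 13.31, 4.50 and 7.80 FPKM in BA50, which overlapped through BA10 replicate 1 and BA50 replicate 1. The pooled log2 change with AOS was -0.67 ± 0.20 (SE; limma adjusted p = 0.0683; exact permutation p = 0.00609 within busulfan status), or -0.59 without A10 replicate 3. It did not pass the test over all genes, of which 0.0443% were called. Some marker lists of other cells moved with it and some against it. All 7 fat cell genes tested had a pooled AOS change below 0 (median -1.30, 1 called lower by limma). So did 11 of 12 simple epithelium genes (median -0.68, 2 called lower), while 1 went the other way. The B0 libraries, high in fat cell and keratin genes, are part of the control here. All 15 endothelial cell genes had a pooled AOS change below 0, with none called and a median of -0.39 against -0.06 for all genes tested. The same was true of all 9 macrophage markers (median -0.44) and all 19 Sertoli cell markers (median -0.28), again with none called by limma. Changes above 0 were found for all 16 spermatid markers (median 0.52) and 13 of 16 spermatocyte markers (median 0.36), also with none called. The part of these lists in the result was not tested. The summed endothelial level was 128 to 166 FPKM in A0, 102 to 126 FPKM in A10, 106 to 112 FPKM in A50, 198 to 215 FPKM in B0, 113 to 172 FPKM in BA10 and 84.4 to 171 FPKM in BA50. BA50 replicate 2 was the lowest of the 18 samples for the endothelial sum and the lowest of its group for Cldn5. Relative to the mean log2 level of the same 15 genes, Cldn5 changed by -0.26 with AOS (exact permutation p = 0.0982), a reference chosen after its values were seen.

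Occludin transcripts were at 2.25, 3.40 and 2.01 FPKM in B0, 1.48, 1.27 and 1.76 FPKM in BA10 and 1.48, 0.94 and 1.41 FPKM in BA50. Ocln was the one junction gene whose B0 samples lay above all samples of both AOS groups after busulfan. The log2 changes were -0.49 in BA10 and -0.63 in BA50, with limma adjusted p of 0.749 and 0.112. Without busulfan the groups overlapped, at 2.32, 2.06 and 1.65 FPKM in A0, 2.51, 1.14 and 1.27 FPKM in A10 and 1.83, 1.35 and 2.05 FPKM in A50. The pooled AOS change was -0.37 ± 0.12 (SE; limma adjusted p = 0.0761; exact permutation p = 0.00808). Since B0 supplies the control here, the high keratin and fat cell levels of those libraries stand beside this result as well, and B0 replicate 2 was the highest of the 18 samples for both Ocln and Krt7. Their part in the result was not tested.

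Cdh2 had the largest positive difference of the 10 genes in BA50 against B0, with 66.68, 67.05 and 35.95 FPKM in BA50 and 37.57, 32.60 and 39.12 FPKM in B0. BA50 replicates 1 and 2 were the 2 highest of all samples, while replicate 3 lay inside the B0 range. The log2 change of 0.57 ± 0.23 was not called (limma adjusted p = 0.16). Whether an AOS change differed with and without busulfan was tested as an interaction, which called 0% of all genes at either concentration. For Cdh2 the AOS change at 50 μg/mL was 0.73 higher after busulfan than without it (interval from 0.03 to 1.43, limma adjusted p = 0.783), and it was the only one of the 10 genes at an unadjusted p under 0.05 in either interaction, where 3.97% of all genes at 10 μg/mL and 6.28% at 50 μg/mL were.

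**Figure D4:**
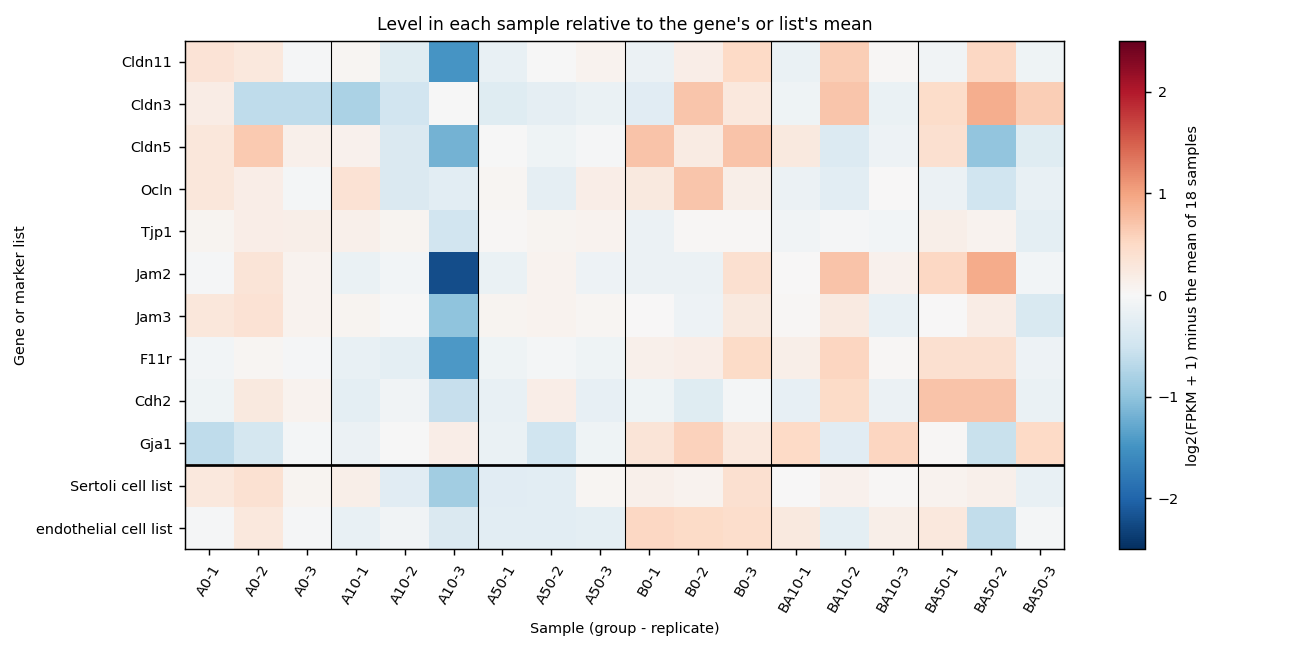
Level of each junction gene in each sample as log2(FPKM + 1) minus the mean of the 18 samples (colour; blue low, red high), above the mean log2 level of 19 Sertoli cell genes and of 15 endothelial cell genes. The column of A10 replicate 3 is blue for 8 of the 10 genes and for the Sertoli cell list. In that column Cldn3 lies almost at its mean, slightly below it, and Gja1 lies above its mean. BA50 replicate 2 is high for Jam2 and Cldn3 and low for Cldn5 and the endothelial list.

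Because most of the barrier is made by Sertoli cells, each gene was also set against the mean log2(FPKM + 1) of the 19 tested Sertoli cell markers in the same sample. These markers were not constant: their mean was 0.18 higher with busulfan and 0.33 lower with AOS in the pooled comparisons, and after busulfan 5 of them were called higher, among them Trf (0.62), Kitl (0.54) and Inha (0.48), and 2 lower. On this relative scale 4 of the 10 genes had an exact permutation p under 0.05 for busulfan, over 10 tests that were not adjusted. Cldn3 was 0.51 higher (exact permutation p = 0.0467) and F11r 0.30 higher (p = 0.00525 by exact permutation), while Tjp1 was 0.24 lower (exact permutation p = 0.0065) and Jam3 0.17 lower (exact permutation p = 0.0328). Gja1 was 0.24 higher, which did not pass (exact permutation p = 0.33). With 6 of the markers as reference (Sox9, Wt1, Gata4, Fshr, Dhh and Clu) Cldn3 no longer passed (0.42, exact permutation p = 0.121) and the other 3 did. For Tjp1 and Jam3 the level itself was nearly flat, at -0.07 and 0.00. Without A10 replicate 3 the reference was 0.09 higher, the levels of Tjp1 and Jam3 changed by -0.13 and -0.11, and the relative values were -0.22 and -0.20 (exact permutation p = 0.0075 and 0.0173). The relative values of Cldn3, F11r and Gja1 without that library were 0.66, 0.26 and 0.35 (exact permutation p = 0.003, 0.0105 and 0.133).

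For AOS the relative scale turned the sign of several genes, since the reference fell. Without A10 replicate 3 the reference was 0.27 lower with AOS. Tjp1 was 0.26 higher relative to the Sertoli markers (exact permutation p = 0.00255) and Cdh2 0.39 higher (exact permutation p = 0.0264), against level changes of -0.07 and 0.06. Cldn5 remained lower at -0.34 (exact permutation p = 0.0631) and Ocln came to -0.04 (exact permutation p = 0.82). Without A10 replicate 3 Jam2 and F11r passed as well, at 0.33 and 0.19 (exact permutation p = 0.0321 and 0.0476).

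**Figure D5:**
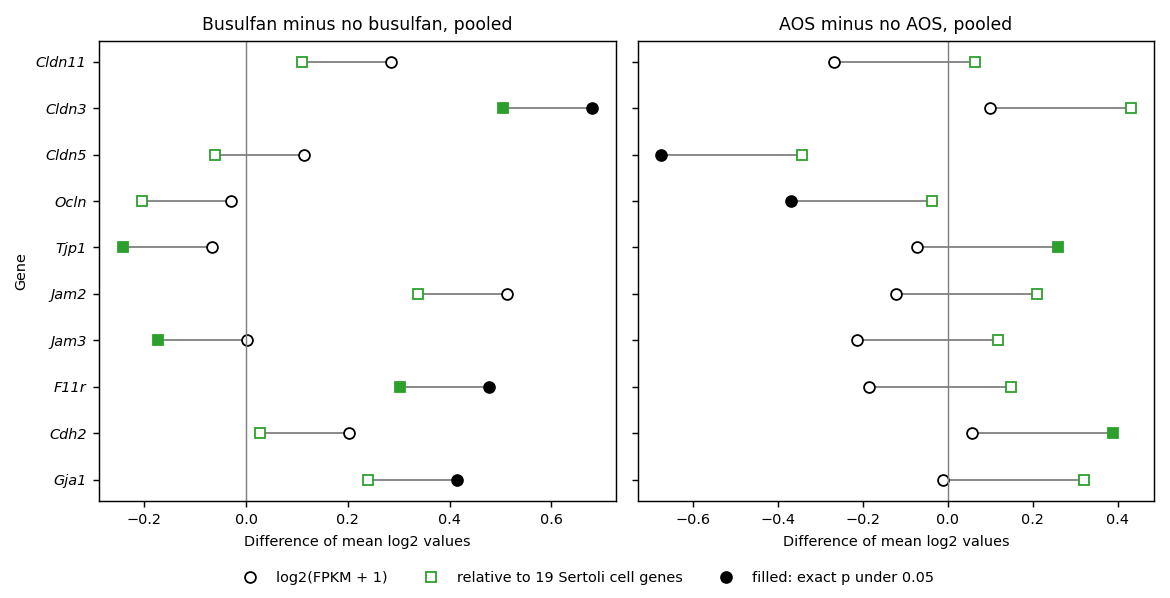
Pooled differences for busulfan (left) and AOS (right) in the level of each junction gene (black circles, log2(FPKM + 1)) and relative to the mean of 19 Sertoli cell genes in the same sample (green squares). Filled symbols have an exact permutation p under 0.05: on the level scale Cldn3, F11r and Gja1 for busulfan and Cldn5 and Ocln for AOS, and on the relative scale Cldn3, Tjp1, Jam3 and F11r for busulfan and Tjp1 and Cdh2 for AOS.

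Other genes of the same junctions moved in both directions with busulfan in the pooled limma fit. Of 21 other tight junction genes tested, 5 were called higher and 2 lower, beside the 38.1% of all genes called, 2097 higher and 3921 lower. Cldn4, a claudin of simple epithelia and the highest of the list, rose by 0.58 (adjusted p = 0.00567), and Cxadr, an adhesion receptor related to the JAMs, rose by 0.46 (adjusted p = 0.000749). Marveld2, which encodes the tricellular junction protein tricellulin, fell by 0.46 on the log2 scale (adjusted p = 0.000428). Its level was near the filter limit, at 1.04 to 1.5 FPKM without and 0.46 to 1.41 FPKM with busulfan, where this scale understates changes. In B0 against A0 the called genes of this list were Cldn4 (1.03), Cldn7 (1.10), Cxadr (0.50) and Pard3 (0.42), all higher, and Cldn7 was at 2.89, 9.22 and 1.80 FPKM in B0 and at most 1.87 FPKM in A0. Both claudins are also on the list of simple epithelium genes, of which 8 of 12 were called higher in B0 against A0 and 2 lower, Esrp1 at -1.08 (limma adjusted p = 0.00259) and Muc1 at -0.64 (limma adjusted p = 0.0473). That comparison called 13.8% of all genes tested.

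Of 29 adherens junction and ectoplasmic specialization genes, 8 were called higher and 3 lower after busulfan by limma. Itga6, the laminin receptor subunit at the base of the tubule, rose by 0.60 (adjusted p = 0.00907), Actn4, an actin crosslinker, by 0.56 (adjusted p = 6.09e-05) and Nectin2, an adhesion molecule between Sertoli cells and spermatids, by 0.42 (adjusted p = 0.00598). Vim, the intermediate filament protein vimentin and the highest gene of this list, rose by 0.32 (adjusted p = 0.00186). Among 8 other gap junction and desmosome genes 1 was called, Gjc1 (connexin 45), which fell by 0.87 on the log2 scale (adjusted p = 5.29e-06), the opposite direction to Gja1. Of 20 barrier regulators 5 were higher and 2 lower, among them Tnfrsf1a, a receptor for tumour necrosis factor, at 0.46 (adjusted p = 0.00546), Sox8, a Sertoli cell transcription factor, at -0.42 (adjusted p = 0.0182), and Il1a, a cytokine that opens the barrier, at 0.36 (adjusted p = 0.00467). The median changes of these 4 lists were 0.12, 0.19, 0.12 and 0.22, and as with the tight junction list the counts stand beside a comparison in which 38.1% of all genes were called. In the pooled AOS comparison no gene of these 4 lists was called by limma.

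The genes most like each junction gene over the 18 samples were taken by Pearson's r on log2(FPKM + 1) among all genes tested, as a description in which samples share groups and the low library A10 replicate 3. The r without that library follows each value, and the order of the closest genes changed for several. Cldn11 was most like Nxf3 (r = 0.976, or 0.929 without it) and next Phf8 (0.974 and 0.924). Gja1 was most like Egfr, the epidermal growth factor receptor (0.961 and 0.962). Cldn5 was closest to Selenop, a secreted selenium carrier (0.95 and 0.935), and next to Ms4a6d (0.942 and 0.929). For Jam3, Amhr2, the Sertoli cell receptor for anti-Müllerian hormone, was among the first 2 in both cases (0.961 and 0.91). Cldn3 (Zfp462, 0.895 and 0.898), Ocln (Zrsr1, 0.907 and 0.904) and Cdh2 (Cdc42ep5, 0.882 and 0.856) had the least close partners. Jam2 was most like Gas7 (0.978 and 0.924), F11r was most like Tmem35a (0.971 and 0.937) and Tjp1 was most like Slc35g1 (0.949 and 0.896). Without A10 replicate 3 Gas7 was only 7th for Jam2, Cdc42ep5 5th for Cdh2, Selenop 3rd for Cldn5 and Slc35g1 2nd for Tjp1, while Nxf3, Egfr, Zfp462, Zrsr1 and Tmem35a were still the closest.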

How the data were processed

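RNA-seq of 18 cultured testis samples was analysed, with groups and replicate numbers taken from the labels. The authors deposited FPKM values per gene number, with 2 decimals. The submitters' processing notes name HISAT, Bowtie2, RSEM and GRCm38.p5, whereas the supplementary methods name SOAPaligner and RPKM, so how the values were made is not settled. Reads per sample are not given in the sources used here, so no counting interval was computed. The labels give AOS in μg/mL, while the series' design text uses a body weight dose. Values of different libraries summed to 463970 to 511274 FPKM.

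Symbols were matched through RefSeq (GRCm38.p6); 20656 of 20811 gene numbers matched, and 1846 gene models had no number. Log2(FPKM + 1) was fitted in R 4.3.3 with limma 3.58.1 (1 coefficient per group, eBayes with trend; 12 residual and 2.56 prior degrees of freedom) on genes that reached 1 FPKM in 3 or more samples, with Benjamini-Hochberg adjustment over all 15790. Reads of near-identical copies could not be separated. The fit was checked on simulated data. For single junction genes, two-sided p-values were also taken from exact permutation: 20 divisions for 3 against 3 samples, which allow no p below 0.1, 8000 arrangements for pooled busulfan and 7056 for pooled AOS, with labels permuted within strata (Python 3.11.15, NumPy 2.4.6). The 10 genes, the comparison lists and the tests were chosen with earlier results of these data known. From other lists the genes named were up to 3 called genes with the largest change, and the highest gene; the likest genes were taken from the first 2 by r, and not all are reported here. Not every gene of this rule is named in the text. Pard3, Krt7, Sox9, Wt1, Amh, Esrp1 and Muc1 were named after their values were seen. Same-numbered samples were examined only for groups set against each other in a single comparison, and not for others such as BA10 and BA50. Among those examined, BA50 and B0 alone had a correlation over 0.1 in every pair (0.562, 0.422 and 0.138). Nothing in the labels says why, and a replicate block there called none of the 10 genes. Alternatives covered scaling, pseudocount, filter, variance model, weights, block and single libraries.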

Additional observations from a re-analysis of the deposited data

How the results depend on the processing

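Of the log2 changes with an unadjusted p under 0.05, 386 values under alternatives kept direction and call, 30 lost and 19 gained the call, and 1 turned. Most of these changes were not called in the main fit, and for them keeping the call means only that they stayed uncalled. Only the called changes could lose a call, so the first count is no measure of how firm the calls were. The change that turned was Cdh2 in BA50 against A50, at -0.053 with sample quality weights (0.50 without). The weights stopped before they converged and gave A10 replicate 3 a weight of 0.109 and A10 replicate 2 one of 10.3. With them limma called 1 of the 10 genes in A10 against A0, 2 in BA50 against B0, 1 in B0 against A0, 2 in BA10 against A10, 4 in BA50 against A50, 5 for pooled busulfan and 2 for pooled AOS. Weights estimated gene by gene, chosen after seeing the data, called 1 in BA50 against B0, 3 in BA50 against A50 and 1 for pooled AOS. In B0 against A0 1 gene, Gja1, was called with median scaling, with a replicate block and with only the groups compared. In BA10 against A10 the count was 0 with only the groups compared, and in BA50 against A50 it was 0 without a filter and with the replicate block (Cldn3, adjusted p = 0.0518). Leaving out BA10 replicate 2 and BA50 replicate 2 together, also chosen later, gave 0 in both. The study's limits (adjusted p of at most 0.001 and a log2 change of at least 1) gave 0 there and for pooled busulfan. Leaving out single libraries gave 0 to 1 in BA50 against B0, 0 to 3 in BA10 against A10, 0 to 1 in BA50 against A50 and 0 to 2 for pooled AOS, where Cldn5 and Ocln were called without A10 replicate 1 or BA50 replicate 1. Relative to Sertoli markers, it gave 2 to 4 genes for busulfan and 1 to 4 for AOS; endothelial markers as reference gave 2 for busulfan and 6 Sertoli markers gave 1 for AOS. The causes were not tested. The replicate numbers pair no samples by the labels; the block moved all-gene counts from 4 to 1 in BA10 against B0, from 15 to 4 in BA50 against B0 and from 7 to 0 for pooled AOS. Quantile normalization shifted the median gene by 0.10 in B0 against A0. Signs near 0 turned under a scaling for Cldn3 in A10 against A0, Cldn11 in BA10 against B0 and in B0 against A0, Jam2 in B0 against A0, Tjp1 in BA50 against B0, Ocln in BA10 against A10, Gja1 for pooled AOS and F11r in the interaction at 50 μg/mL. With 3 samples per group and unknown depth, the intervals of most single comparisons span changes of over 0.5 on the log2 scale.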
